A study of Mus musculus with 8 samples.

Results

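The nuclear-encoded genes of the respiratory chain were followed in brachiocephalic arteries of ApoE-deficient mice on a high-fat diet. They were taken from the deposited expression table by name, as all rows whose symbol marks a subunit of complexes I to V, Cyc1 included. The names picked 91 of the 49585 listed genes. Of these, 82 were subunit genes, with 35 in complex I, 4 in complex II, 9 in complex III, 19 in complex IV and 15 in complex V. The other 9 were 6 pseudogenes, Atp5s and Atp5sl, which are related to assembly, and Cox7a2l, a factor that joins complexes III and IV into supercomplexes. Ndufa4 and its paralog Ndufa4l2 were counted with complex IV, where the Ndufa4 protein sits.

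The series holds 4 samples from mice that received 250 micrograms of the Dll1-blocking antibody clone HMD1-5 in each of 2 weekly intraperitoneal injections (Dll1Ab), and 4 from mice that received the same dose of non-immune IgG. Dll1 is a ligand of the Notch receptors. Both groups were ApoE-deficient and ate the fat-rich diet from 12 weeks of age, so plaque-forming conditions were common to both, and arteries without them were not analysed here. The labels give no sex or age at collection, and they do not say that the samples came from separate animals. The p-values therefore describe the spread among these 8 samples, part of which may be technical. The column names divide the libraries into sets 076 and 045. What these numbers stand for could not be read from the labels. Each set held 2 Dll1Ab and 2 IgG libraries. Both sets had Dll1Ab libraries named D1IA and D2IA, which are different libraries. The IgG libraries were G1IA and G2IA in set 076 and C1IA and C2IA in set 045.

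Respiratory complexes I to IV pass electrons to oxygen, complexes I, III and IV pump protons across the inner mitochondrial membrane, and complex V uses the proton gradient to make ATP. All but complex II combine many nuclear-encoded subunits with a few encoded in mitochondrial DNA. Several subunits of complex IV exist as a general form and as a form used in heart, skeletal muscle or brown fat, and brown fat, which lies around the thoracic arteries, is among the tissues richest in these transcripts. The artery wall itself is made of smooth muscle and endothelium, with macrophages in plaques.

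The table gave TPM, a length-adjusted share of all transcripts, and its protein-coding part differed widely between the sets. Set 076 had 21.2% to 24.2% of its TPM on nuclear protein-coding genes, and set 045 had 0.848% to 3.10%. Values are therefore given here relative to a nuclear protein-coding total of 1000000 TPM, called levels, which compare genes per length of their annotated exons. Reads on nuclear protein-coding genes numbered 7422320 to 8070908 per library in set 076. In set 045 they numbered 663098 and 1598465 in Dll1Ab libraries D1IA and D2IA, against 1675866 and 2729066 in IgG libraries C1IA and C2IA. In set 045 C1IA and D2IA were also the libraries with Xist, at levels of 262 and 309, while the others of both sets had at most 2.33. Within a pair of values D1IA precedes D2IA, G1IA precedes G2IA and C1IA precedes C2IA. Markers of smooth muscle, endothelium and macrophages were above 0 in every group and set.

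No gene for a respiratory chain subunit was called different between Dll1Ab and IgG arteries, in either set or over both. The subunit genes varied together between libraries, and both groups held libraries with many and with few of these transcripts. In set 076 the 82 subunit genes summed to 59789 and 36161 in the Dll1Ab libraries, against 34156 and 65719 in the IgG libraries. In set 045 they summed to 33701 and 12738 in the Dll1Ab libraries, against 14883 and 35480 in the IgG libraries. Over all 8 libraries the sums averaged 35597 ± 19250 in Dll1Ab samples and 37559 ± 21001 in IgG samples (SD, n = 4 each). Within each set the sums of the groups overlapped, and each group had a high and a low library. In set 076 the Dll1Ab sums lay between the IgG sums, while in set 045 the lowest sum was a Dll1Ab library and the highest an IgG library. Because these are bulk samples, fewer cells rich in mitochondria and less of this RNA per cell cannot be told apart.

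**Figure D1:**
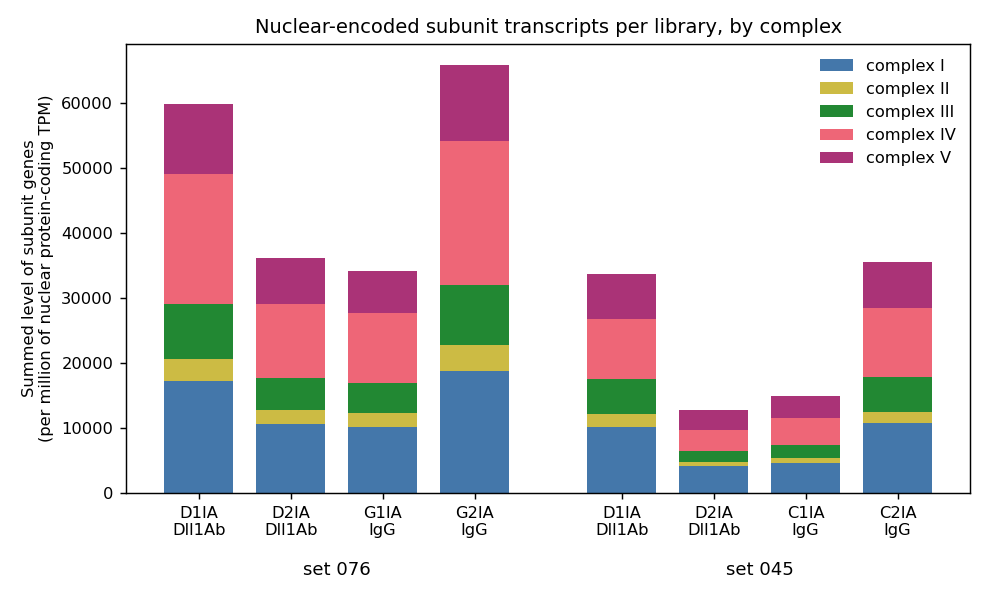
Summed level of the 82 nuclear-encoded subunit genes in each library, stacked by complex, on a scale where nuclear protein-coding genes total 1000000 (bars start at 0; 1 bar per library, Dll1Ab left of IgG in each set). The highest bar is IgG library G2IA of set 076 at 65719 and the lowest is Dll1Ab library D2IA of set 045 at 12738. Each group has a high and a low library in each set.

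The high library of a group exceeded the low one 1.65-fold for Dll1Ab and 1.92-fold for IgG in set 076, and 2.65-fold for Dll1Ab and 2.38-fold for IgG in set 045. Nearly every subunit gene followed. Of 80 detected subunit genes, 78 were higher in the higher Dll1Ab library of set 076 and 76 in the higher IgG library. In set 045 the counts were 74 for Dll1Ab and 76 for IgG. Of all genes tested, 24.4% were higher in that Dll1Ab library and 28.5% in that IgG library of set 076, and 34.6% in that Dll1Ab library and 46.3% in that IgG library of set 045. The libraries were ordered by the subunit sum itself, so these counts describe how alike the genes moved and test nothing. Complex IV showed the widest range of summed levels over the 8 libraries, at 7.07-fold, and complex V the narrowest, at 3.78-fold.

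**Figure D2:**
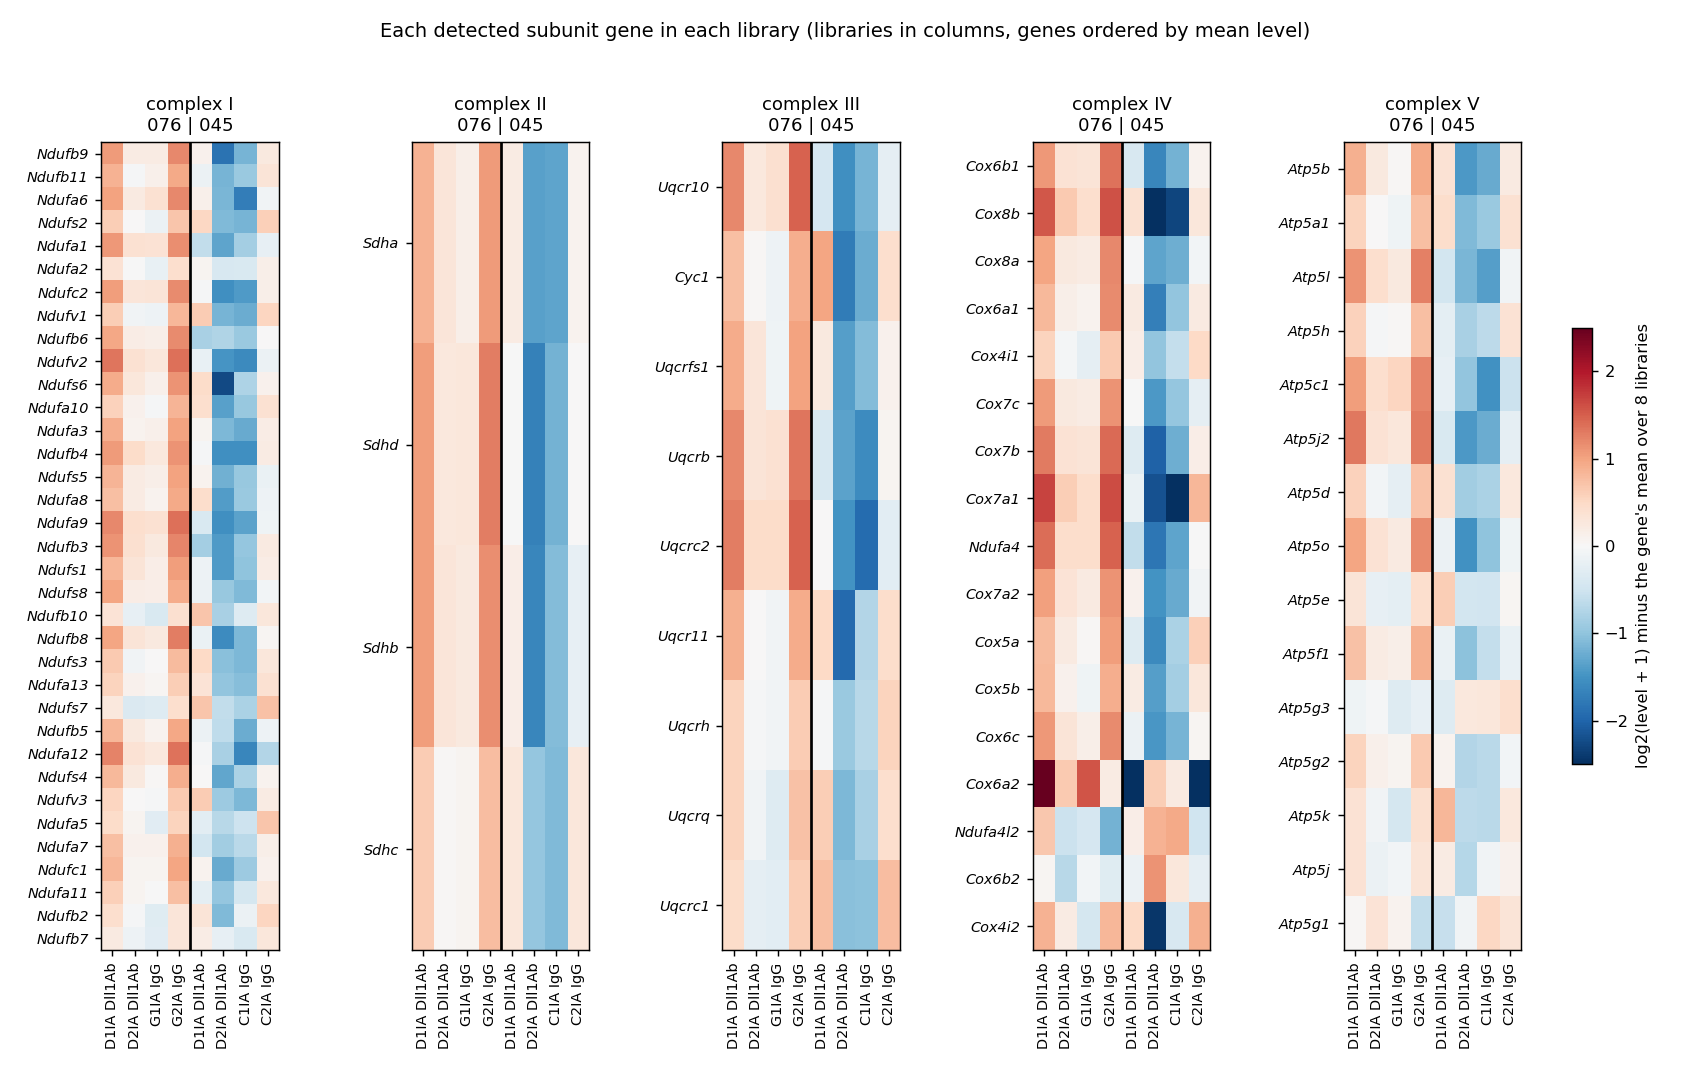
Level of each of the 80 detected subunit genes in each library, as log2(level + 1) minus the gene's mean over the 8 libraries (red above, blue below; 1 panel per complex, genes from highest to lowest mean level, the black line parting set 076 from set 045). Most rows share the pattern of the library sums, while Cox6a2, Ndufa4l2, Cox6b2, Atp5g1 and Atp5g3 depart from it.

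Complex I, which takes electrons from NADH, made up 28.6% to 29.9% of the subunit sum in set 076 and 30.1% to 33.1% in set 045. Ndufs1, which carries iron-sulphur clusters, lay at 404 and 282 in the Dll1Ab libraries of set 076, against 256 and 467 in the IgG libraries. Its levels in set 045 were 208 and 83.9 with Dll1Ab, against 113 and 257 with IgG. Ndufv1, which binds NADH, lay at 614 and 379 with Dll1Ab and 366 and 713 with IgG in set 076. Set 045 gave 625 and 179 with Dll1Ab and 170 and 582 with IgG, so the high libraries of the sets were at like levels. Among the 35 genes, mean levels over the 8 libraries ran from 40.3 for Ndufb7 to 896 for Ndufb9, both accessory subunits of the membrane arm. Ndufb7 was also the steadiest, with 1.6-fold between its highest and lowest library, against 10.6-fold for Ndufs6, an accessory subunit of the NADH-oxidising arm. Over both sets the smallest p-values for the antibody in complex I were those of Ndufa12 and Ndufb3, both accessory subunits. Ndufa12 lay at 374 and 204 with Dll1Ab and 189 and 405 with IgG in set 076, and at 156 and 89.8 with Dll1Ab and 50.6 and 95.5 with IgG in set 045. The antibody effect on Ndufa12 was 0.38 on the log2 scale (SE 0.38, limma adjusted p = 1.00), and that of Ndufb3 was -0.37 (SE 0.38, limma adjusted p = 1.00).

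Complex II, succinate dehydrogenase, is encoded wholly in the nucleus and made up 5.00% to 6.03% of the subunit sum. Sdha, which carries the flavin and oxidises succinate, lay at 1184 and 791 with Dll1Ab and 718 and 1345 with IgG in set 076. In set 045 Sdha lay at 748 and 251 with Dll1Ab and 259 and 683 with IgG, with the same high and low libraries as the sums. Sdhb, the iron-sulphur subunit, lay at 797 and 477 with Dll1Ab and 453 and 859 with IgG in set 076, and at 428 and 123 with Dll1Ab and 181 and 332 with IgG in set 045. Of the membrane anchors, Sdhc was the lowest of the 4 genes at a mean level of 177 and Sdhd lay at 712. The log2 fold change for the antibody over both sets was 0.01 for Sdha with a 95% interval of -1.001 to 1.02. It was -0.05 for Sdhb (-1.04 to 0.93) and -0.20 for Sdhd (-1.24 to 0.84). None was called (limma adjusted p = 1.00 for each), and these intervals span 2-fold differences either way or nearly so.

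Complex III hands electrons from ubiquinol to cytochrome c, and its 9 genes made up 13.3% to 16.1% of the subunit sum. Cyc1, cytochrome c1, lay at 947 and 573 with Dll1Ab and 518 and 1063 with IgG in set 076, and at 1113 and 168 with Dll1Ab and 238 and 758 with IgG in set 045. Its highest value was thus in Dll1Ab library D1IA of set 045, the library with the fewest protein-coding reads. Uqcrfs1, the Rieske iron-sulphur protein, lay at 1114 and 720 with Dll1Ab and 536 and 1163 with IgG in set 076. In set 045 it lay at 685 and 223 with Dll1Ab and 272 and 629 with IgG. Mean levels ran from 351 for Uqcrc1, a core protein, to 731 for Uqcr10, a small accessory subunit. Uqcr10 and Uqcrh, the hinge protein, had the smallest p-values for the antibody in this complex, with log2 fold changes of -0.24 (SE 0.39) and -0.22 (SE 0.36), and neither was called (limma adjusted p = 1.00 for both).

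Complex V, the ATP synthase, made up 17.7% to 19.4% of the subunit sum in set 076 and 19.8% to 24.2% in set 045. Its catalytic head was the most abundant part. Atp5b, the catalytic beta subunit, lay at 2610 and 1666 with Dll1Ab and 1443 and 2715 with IgG in set 076, and at 1804 and 523 with Dll1Ab and 590 and 1658 with IgG in set 045. Atp5a1, the alpha subunit beside it, lay at 1979 and 1352 with Dll1Ab and 1247 and 2260 with IgG in set 076. Its levels in set 045 were 1816 and 623 with Dll1Ab and 705 and 1744 with IgG. Atp5h, of the peripheral stalk, and Atp5k, of the membrane part, had log2 fold changes of -0.25 (SE 0.32) and 0.22 (SE 0.38), neither called (limma adjusted p = 1.00).

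Atp5g1, Atp5g2 and Atp5g3 encode the same mature c subunit of the ATP synthase ring and differ in the peptide that directs it into mitochondria. Of the 3 genes, Atp5g2 followed the high and low libraries of the sums, with 250 and 186 under Dll1Ab and 178 and 267 under IgG in set 076, and 181 and 102 under Dll1Ab and 106 and 162 under IgG in set 045. Atp5g3 lay at 174 and 184 with Dll1Ab and 149 and 162 with IgG in set 076, so both Dll1Ab libraries were higher. In set 045 it lay at 148 and 224 with Dll1Ab and 229 and 250 with IgG, so both Dll1Ab libraries were lower. Atp5g1 lay at 31.1 and 39.1 with Dll1Ab and 32.5 and 19.5 with IgG in set 076, and the groups overlapped. In set 045 its levels of 20.2 and 28.9 with Dll1Ab were below those of 44.1 and 38.6 with IgG. These rest on 19 and 58 Dll1Ab reads and on 90 and 134 IgG reads. The treatment effect on Atp5g1 was 0.45 on the log2 scale in set 076 (SE 0.35, limma adjusted p = 1.00) and -0.75 in set 045 (SE 0.35, adjusted p = 0.611). The difference between these effects was 1.20 (SE 0.49, limma adjusted p = 0.798) and did not pass the threshold. Atp5g1 has 4912 bases of annotated exons, against 1675 for Atp5g2 and 2181 for Atp5g3, and a level divides reads by this length, so the low rank of Atp5g1 depends on it.

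Complex IV, cytochrome c oxidase, reduces oxygen and made up 31.5% to 33.5% of the subunit sum in set 076 and 24.5% to 29.9% in set 045. Cox6b1, which faces the intermembrane space, was the highest nuclear-encoded subunit gene at a mean level of 1631, close to Atp5b at 1626. In set 045 its mean of 862 was below those of Atp5a1 at 1222 and Atp5b at 1143. This rank also depends on exon length, 708 bases for Cox6b1 and 4237 for Atp5b. Cox4i1, which regulates the enzyme through ATP binding, lay at 1481 and 980 with Dll1Ab and 861 and 1593 with IgG in set 076, and at 1127 and 508 with Dll1Ab and 665 and 1421 with IgG in set 045. Cox5a, a matrix-side subunit, lay at 544 and 368 with Dll1Ab and 321 and 649 with IgG in set 076. Set 045 gave 253 and 104 with Dll1Ab and 182 and 479 with IgG. Its log2 fold change over both sets, -0.45 (SE 0.44, limma adjusted p = 1.00), was the most negative among the subunit genes.

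The paired forms of complex IV subunits differed in how they were used. Ratios of TPM within a library do not depend on the scaling, and are given for the tissue-restricted form over its partner. Cox8b, the form of heart, skeletal muscle and brown fat, was about as abundant per exon length as the general Cox8a in 6 libraries. The lengths were 360 bases for Cox8b and 545 for Cox8a, and Cox8b had fewer reads than Cox8a in every library. The ratio was 1.19 and 1.07 with Dll1Ab and 0.935 and 1.06 with IgG in set 076. In set 045 it was 1.07 and 0.321 with Dll1Ab and 0.378 and 1.02 with IgG, so it was low in D2IA and C1IA, the libraries of low subunit sums. Those libraries held 25 and 32 Cox8b reads, against 118 and 128 Cox8a reads. Cox7a1, the muscle and brown fat form, stood to Cox7a2 at 1.65 and 1.26 with Dll1Ab and 1.22 and 1.49 with IgG in set 076. In set 045 the ratio was 0.862 and 0.647 with Dll1Ab and 0.343 and 1.98 with IgG, on 14 to 309 Cox7a1 reads. It too depends on exon length, 535 bases for Cox7a1 and 944 for Cox7a2. Within set 045, C2IA was highest and C1IA lowest in this ratio, and both were IgG libraries.

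**Figure D3:**
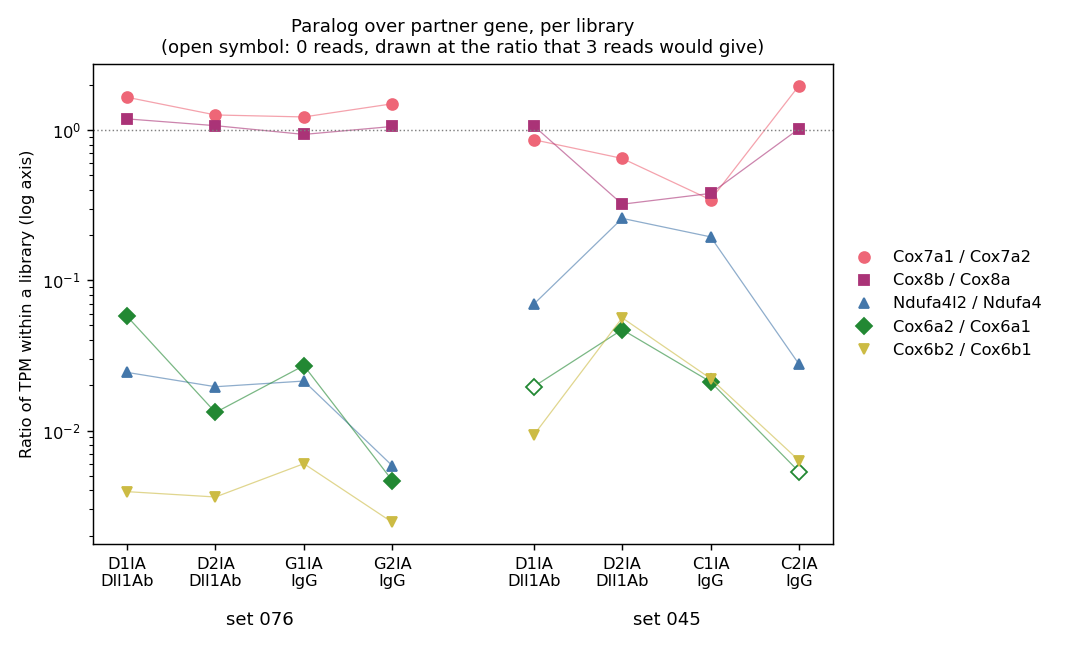
Ratio of TPM of a paralog over its partner gene within each library, on a log axis (1 symbol per library, Dll1Ab left of IgG in each set; lines join the libraries of a set; open symbols are libraries with 0 reads of the paralog, drawn at the ratio 3 reads would give). Cox8b over Cox8a and Cox7a1 over Cox7a2 lie near 1 in set 076 and are low in D2IA and C1IA of set 045, where Ndufa4l2 over Ndufa4 is highest, at 0.258 and 0.194.

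The levels behind these ratios show that Cox8b and Cox7a1 varied more than any other subunit genes detected in every library. Cox8b lay at 3104 and 1657 with Dll1Ab and 1414 and 3190 with IgG in set 076, and at 1376 and 170 with Dll1Ab and 214 and 1281 with IgG in set 045. Its range over the 8 libraries was 18.8-fold, against 5.7-fold for Cox8a. Cox7a1 lay at 1475 and 701 with Dll1Ab and 626 and 1425 with IgG in set 076, and at 409 and 101 with Dll1Ab and 63.0 and 817 with IgG in set 045. Its range was 23.4-fold, against 6.1-fold for Cox7a2. The treatment effect over both sets was -0.01 for Cox8b (SE 0.76, 95% interval -1.76 to 1.74) and -0.03 for Cox7a1 (SE 0.81, -1.89 to 1.84) on the log2 scale, with limma adjusted p = 1.00 for both. Intervals this wide leave room for differences over 3-fold in either direction.

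The promoters of the paired genes, from RefSeq on GRCm38.p6, differ in base composition, and those of Cox8b and Cox8a are shown because their transcripts varied so differently. The 250 bases before the transcription start are printed on the gene's strand, with each CG dinucleotide in capitals, for Cox8b at chr7:140900447-140900696 (minus strand) and Cox8a at chr19:7217617-7217866 (minus strand).
Cox8b: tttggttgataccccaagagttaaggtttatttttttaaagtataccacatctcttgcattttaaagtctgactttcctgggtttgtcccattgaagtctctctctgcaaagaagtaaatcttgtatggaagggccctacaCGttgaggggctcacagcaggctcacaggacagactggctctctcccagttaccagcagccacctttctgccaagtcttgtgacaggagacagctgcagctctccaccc
Cox8a: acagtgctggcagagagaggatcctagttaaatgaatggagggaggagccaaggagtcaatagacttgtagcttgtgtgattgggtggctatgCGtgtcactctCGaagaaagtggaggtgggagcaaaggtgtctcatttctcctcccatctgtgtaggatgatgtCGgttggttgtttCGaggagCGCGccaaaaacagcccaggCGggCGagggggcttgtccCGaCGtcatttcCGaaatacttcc
Cox8b had 1 CG in this window, the fewest of the 65 subunit genes with an entry, and Cox8a had 11. Cox7a1 had 4 and Cox7a2 had 14, while Ndufc2 of complex I also had 4. The testis form Cox6b2 had 8 and Cox6b1 had 14. In the Cox7b pair the order was reversed, with 9 for the testis form Cox7b2 and 5 for the general Cox7b. A link of CG counts to the spread of levels was not tested. The median was 14 over the 65 subunit genes and 6 over all 27025 genes of the table.

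Short motifs were searched on both strands in every window listed for a gene, while the CG counts used the first window listed. Atp5j held its ETS and YY1 matches outside the window used for CG. The palindrome bound by NRF1, a regulator of nuclear genes for mitochondria, was found in 4 of 65 subunit promoters (6.15%), those of Atp5g2, Atp5k, Cox6a1 and Ndufa11, and in 0.877% of all promoters. CCGGAAG, an ETS motif of the kind bound by GABPA, was found in 12 of 65 (18.5%) and in 7.83% of all promoters. TCAAGGTCA, for estrogen-related receptors, was found in 1 of 65 (1.54%), that of Atp5g3, and in 0.422% of all promoters. The longer motifs of YY1 and the muscle factor MEF2 were found in 1 and 0 of 65, against 0.359% and 0.115%. TATAAA was found in 6 of 65 (9.23%), against 14.3%. Cox6a1, the general form of its subunit, is shown because it held both an NRF1 and an ETS match, in capitals, at chr5:115348959-115349208 (minus strand).
Cox6a1: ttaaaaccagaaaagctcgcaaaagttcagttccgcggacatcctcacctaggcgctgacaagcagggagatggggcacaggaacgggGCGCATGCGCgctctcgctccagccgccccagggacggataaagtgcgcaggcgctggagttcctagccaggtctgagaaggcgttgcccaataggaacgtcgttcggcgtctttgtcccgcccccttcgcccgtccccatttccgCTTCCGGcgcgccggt
The first run of capitals is the NRF1 palindrome and the second is the ETS motif read on the other strand. A match describes these letters and does not show binding.

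Cox6a2, the form of heart and skeletal muscle, did not follow the subunit sums. It lay at 102 and 14.7 with Dll1Ab and 28.7 and 10.5 with IgG in set 076, on 170, 22, 42 and 17 reads. In set 045 it had 4 reads in Dll1Ab library D2IA and 3 in IgG library C1IA, and 0 in Dll1Ab library D1IA and IgG library C2IA, where 0 reads allow a ratio to Cox6a1 of up to 0.0196 and 0.00531 (3 reads; counting error only). Its ratio to Cox6a1 was 0.0575 and 0.0132 with Dll1Ab and 0.0270 and 0.00464 with IgG in set 076. The highest library, D1IA of set 076, was also the one highest in fast skeletal muscle and in heart muscle markers. In set 076 the 12 heart markers summed to 1355 and 460 with Dll1Ab and 1151 and 219 with IgG, the order of the Cox6a2 levels. The 13 fast skeletal genes summed to 6491 and 521 with Dll1Ab and 161 and 14.5 with IgG in set 076, and to 88.5 and 10.1 with Dll1Ab and 136 and 18.2 with IgG in set 045, and the part of either tissue in the Cox6a2 values was not tested. The treatment effect on Cox6a2 was 0.66 (SE 1.11, limma adjusted p = 1.00).

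Ndufa4l2, a hypoxia-inducible paralog of Ndufa4, was lower in the library with more Ndufa4 in 3 of the 4 pairs of like libraries, the exception being the Dll1Ab libraries of set 076. Ndufa4 lay at 1270 and 654 with Dll1Ab and 659 and 1353 with IgG in set 076, and at 313 and 138 with Dll1Ab and 194 and 481 with IgG in set 045. Ndufa4l2 lay at 30.9 and 12.8 with Dll1Ab and 14.1 and 7.88 with IgG in set 076, and at 21.7 and 35.7 with Dll1Ab and 37.6 and 13.3 with IgG in set 045. The ratio was 0.0244 and 0.0196 with Dll1Ab and 0.0213 and 0.00583 with IgG in set 076, and 0.0693 and 0.258 with Dll1Ab and 0.194 and 0.0276 with IgG in set 045, on 4 to 15 Ndufa4l2 reads in that set. Its treatment effect over both sets had the second smallest p of any member, at 0.58 on the log2 scale (SE 0.42, limma adjusted p = 1.00). In set 076 alone it was 0.86 (SE 0.63, limma adjusted p = 1.00), and the groups overlapped there only in that D2IA lay between the IgG libraries.

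The other restricted forms were near the limit of detection. Cox4i2, induced by low oxygen and found in lung, had 0 to 17 reads and stood at 0.00632 of Cox4i1 or less where detected. Cox6b2, a testis form, had 2 to 30 reads per library, and its ratio to Cox6b1 was highest in Dll1Ab library D2IA of set 045, at 0.0562 on 11 reads. The 7 testis markers summed to 0.992 at most, and all were at 0 in set 045. Cox7b2 and Cox8c, also testis forms, had 0 reads in all 8 libraries, which allows a level of at most 28.9 for Cox7b2 and 34.1 for Cox8c in the shallowest library, while Cox7b, the general form, reached 1495. Of the 6 pseudogenes, Atp5k-ps2 and Atp5l-ps2 had 0 reads throughout and the others at most 5. Atp5l2-ps had 4 and 1 reads with Dll1Ab and 1 and 1 with IgG in set 076, and 0 reads in set 045. The antibody effect on it in set 076 was 0.69 on the log2 scale (SE 0.74, limma adjusted p = 1.00). Reads of such near-identical copies may be split between the copies in ways the table does not show.

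Cox7a2l held nearly the same level in every library. It lay at 724 and 538 with Dll1Ab and 614 and 748 with IgG in set 076, and at 832 and 610 with Dll1Ab and 523 and 659 with IgG in set 045, a range of 1.6-fold. The level of Cox7a2l thus exceeded that of Cox7a2 in the 4 libraries of set 045, at 1.59 to 3.92 times, and in G1IA of set 076, at 1.20 times.

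Formal tests of the antibody gave no member. Of the 91 members, 85 passed the filter of a mean level of at least 1, which left out Cox7b2, Cox8c and 4 pseudogenes. Over both sets 0 of 85 passed an adjusted p of 0.05 (limma, with the set as a term), against 0% of all 18170 genes tested, and 0 members and 278 genes had an unadjusted p under 0.05. In set 076, 0 of 85 passed, against 0.011% of all genes, and 0 members and 163 genes had an unadjusted p under 0.05. In set 045, 0 of 85 passed, against 0%. There 1 member, Atp5s, had an unadjusted p under 0.05, against 1452 of all 18170 genes tested. The median log2 fold change of the members was -0.05 over both sets, against -0.07 over all genes tested. It was -0.03 against 0.00 in set 076 and -0.11 against -0.13 in set 045. By complex, the medians over both sets ran from -0.10 in complex IV to -0.03 in complex II. With TMM factors the members' median was 0.01 and with TPM as deposited it was -0.37, against all-gene medians of -0.01 and -0.17, so no direction is given for the family.

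Atp5s, whose product is known as coupling factor B, had the smallest p of the members. It lay at 16.7 and 17.5 with Dll1Ab and 19.7 and 19.5 with IgG in set 076, and at 7.02 and 8.24 with Dll1Ab and 21.1 and 13.3 with IgG in set 045. Both Dll1Ab libraries were below both IgG libraries in each set, but in set 045 these were 2 and 5 reads, against 13 and 14. The log2 fold change was -0.62 over both sets (SE 0.28, limma adjusted p = 1.00) and -1.05 in set 045 (SE 0.36, limma adjusted p = 0.577). In set 076 Atp5s was the one member of 85 with both Dll1Ab libraries below both IgG libraries, as were 11% of all genes tested, and Atp5g3 the one with both above, as were 7.99%. In set 045 Atp5g1, Atp5g3 and Atp5s had both below, against 20.8% of all genes, and 0 members had both above, against 14.2%. The difference of the treatment effect between the sets was called for 0 of 85 members, against 0% of all genes, and its smallest adjusted p among members was that of Atp5g1.

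**Figure D4:**
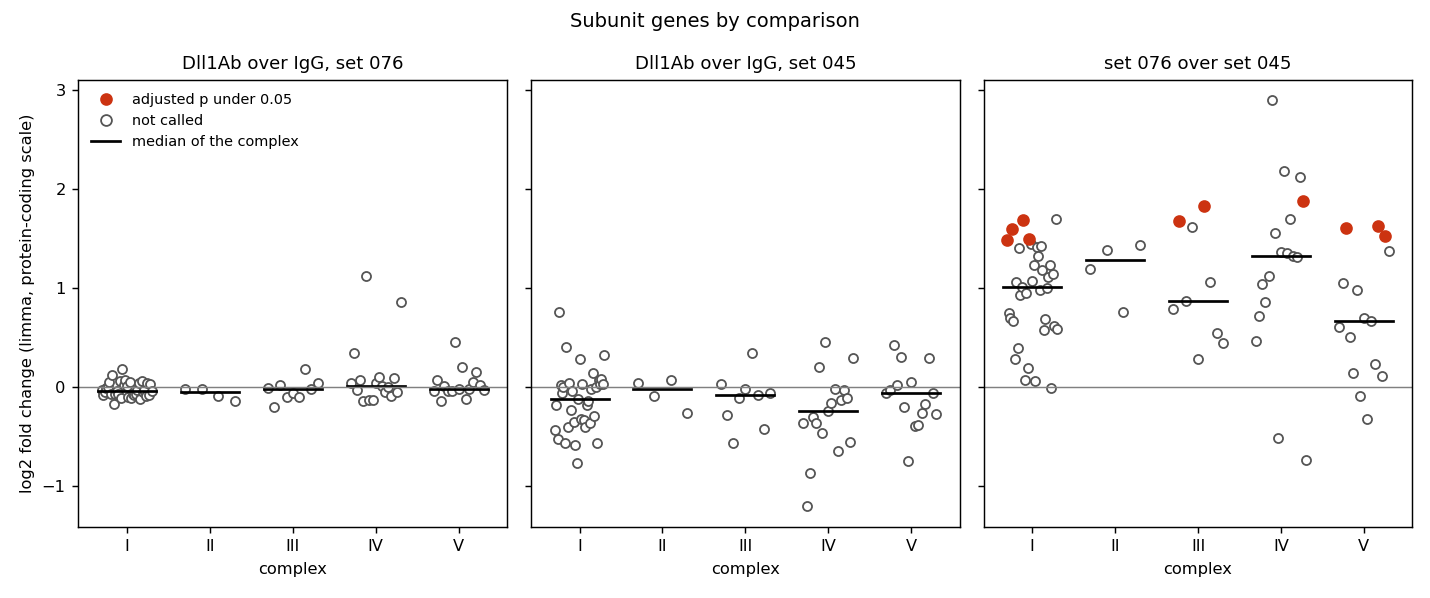
Log2 fold change of each tested subunit gene on the protein-coding scale, for Dll1Ab over IgG in set 076, the same in set 045, and set 076 over set 045 (1 point per gene, by complex; filled where limma's adjusted p is under 0.05; black lines are medians of a complex). No point is filled for the antibody, and 10 are filled for the sets, all above 0.

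Some subunit genes were called different between the sets. With treatment as a term, 10 of 85 members were higher in set 076 than in set 045 at an adjusted p under 0.05, against 2.67% of all genes tested, and 0 were lower, against 6.84% (9.52% of all genes in either direction). The members' median log2 difference was 1.04, against -0.27 over all genes, and 79 of 85 were positive. All 4 libraries of set 076 lay above all 4 of set 045 for 31 of the 82 subunit genes, against 6.41% of all genes tested. The called genes were Ndufa1, Ndufa9, Ndufa12 and Ndufb3 of complex I, Uqcr10 and Uqcrc2 of complex III, Ndufa4 of complex IV, and Atp5c1, Atp5j2 and Atp5l of complex V. C1IA and D2IA of set 045, the libraries with Xist, were also those with the low subunit sums of that set. Left without them, the fit called 1 member and the median was 0.40. What sets these libraries apart was not tested. Leaving out 1 library at a time gave 0 to 33 called members, with 0 without D1IA or G2IA of set 076 or without D2IA or C1IA of set 045, 5 without C2IA and 33 without D1IA of set 045.

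The smallest p was that of Atp5c1, the gamma subunit, the rotating shaft of the ATP synthase. Atp5c1 lay at 647 and 422 with Dll1Ab and 458 and 728 with IgG in set 076, and at 273 and 158 with Dll1Ab and 110 and 217 with IgG in set 045, without overlap. Its log2 difference was 1.61 (SE 0.33, limma adjusted p = 0.0270). Ndufa1, a small membrane-arm subunit of complex I, lay at 925 and 570 with Dll1Ab and 560 and 977 with IgG in set 076. In set 045 it lay at 286 and 175 with Dll1Ab and 241 and 382 with IgG, again without overlap, a difference of 1.49 (SE 0.31, adjusted p = 0.0283). Ndufa4 differed by 1.88 (SE 0.43, adjusted p = 0.0354) and Uqcr10 by 1.67 (SE 0.39, adjusted p = 0.0369). Ndufa9, a Q-module subunit of complex I, differed by 1.69 (SE 0.40, adjusted p = 0.0377), and Ndufa12 by 1.60 (SE 0.38, adjusted p = 0.0379). Atp5j2 and Atp5l, both of the membrane part of the ATP synthase, differed by 1.63 and 1.52 (adjusted p = 0.0381 and 0.0429). Ndufb3 differed by 1.499 (adjusted p = 0.0441) and Uqcrc2, a core protein of complex III, by 1.83 (adjusted p = 0.0498).

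Larger differences did not always pass. Cox8b differed by 2.12 (SE 0.76, limma adjusted p = 0.111), Cox7a1 by 2.18 (SE 0.81, adjusted p = 0.122) and Cox6a2 by 2.90 (SE 1.11, adjusted p = 0.130) with larger standard errors than the called genes. Complex II gave no call, with Sdhb at 1.38 (SE 0.43, adjusted p = 0.0796) and Sdhd at 1.43 (SE 0.46, adjusted p = 0.0820). In complex IV, Cox6b1 just missed the threshold at 1.56 (SE 0.42, adjusted p = 0.0539). The lowest values were those of Ndufa4l2 at -0.74 (SE 0.42, adjusted p = 0.283) and Cox6b2 at -0.51 (SE 0.38, adjusted p = 0.403), followed by Atp5sl and Atp5g3 at -0.34 and -0.32, and none of these passed. By complex, the median was highest in complex IV at 1.32 and lowest in complex V at 0.66.

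Genes that work beside the subunits split into those that shared the pattern and those that did not. The 16 genes of the tricarboxylic acid cycle, which feeds the chain, summed to 12603 and 8301 with Dll1Ab and 7900 and 14630 with IgG in set 076, and to 9705 and 2624 with Dll1Ab and 3109 and 8895 with IgG in set 045. The high and low libraries of each group were those of the subunit sums, and 0 of 16 were called for the antibody or between the sets. All 16 had higher estimates in set 076, with a median log2 difference of 1.20. Of these, 10 had an unadjusted limma p under 0.05, against 5333 of all 18170 genes tested, of which 1639 were higher in set 076. Of 9 tested electron carriers and subunits outside the names, 3 were higher in set 076 and 0 lower, namely Cycs, which is cytochrome c, Usmg5, a small ATP synthase subunit, and Etfdh, which feeds electrons from fat oxidation to ubiquinone. The assembly factors, which help to build the complexes, varied less, at 2634 and 2257 with Dll1Ab and 2001 and 2761 with IgG in set 076, and at 2508 and 1510 with Dll1Ab and 2019 and 2833 with IgG in set 045. None of their 48 tested genes was called in either comparison. Among 15 tested regulators of mitochondrial biogenesis, 0 were called for the antibody and 1 was lower in set 076, Polrmt, the mitochondrial RNA polymerase. Ppargc1a, the coactivator of this programme and 1 of the brown fat markers, lay at 87.3 and 64.2 with Dll1Ab and 17.3 and 80.2 with IgG in set 076, and at 35.6 and 8.91 with Dll1Ab and 9.50 and 34.3 with IgG in set 045.

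On the scale of levels, the 13 subunits encoded in mitochondrial DNA differed between the sets in the other direction. Their levels, which are not part of the nuclear total, summed to 567818 and 302092 with Dll1Ab and 316980 and 659694 with IgG in set 076, and to 1942270 and 1117770 with Dll1Ab and 734152 and 473151 with IgG in set 045. On this scale, within 3 of the 4 pairs of like libraries the higher sum was in the library of the higher nuclear-encoded sum, the exception being the IgG libraries of set 045. They summed to 9.50 and 8.35 times the nuclear-encoded sum with Dll1Ab and 9.28 and 10.04 times with IgG in set 076. In set 045 the ratio was 57.6 and 87.8 with Dll1Ab and 49.3 and 13.3 with IgG. Of the 13, 4 were called lower in set 076 on the scale of levels (limma adjusted p under 0.05), and the median log2 difference was -1.29. In TPM as deposited the direction was reversed. Deposited TPM of the 13 summed to 122163 and 73090.5 with Dll1Ab and 70823 and 139772 with IgG in set 076. In set 045 it summed to 16479 and 19715 with Dll1Ab and 12506.5 and 14649 with IgG. Deposited TPM of the nuclear-encoded subunits there summed to 286 and 225 with Dll1Ab and 254 and 1098 with IgG. In this unit the exception among the pairs was thus the Dll1Ab libraries of set 045 and not its IgG libraries. For the antibody 0 of 13 were called over both sets. In set 045 both Dll1Ab ratios were above both IgG ratios, and the antibody effect there had a median of 1.27 on the log2 scale with 0 of 13 called (smallest limma adjusted p = 0.564). Nuclear protein-coding genes took 0.848% and 1.76% of TPM in these Dll1Ab libraries and 1.70% and 3.10% in the IgG libraries, and the part of this share in the ratios was not tested.

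Markers of other cell types moved beside the subunit sums. The 9 brown fat markers, of which none was at 0 in any group, summed to 8500 and 4981 with Dll1Ab and 2460 and 8142 with IgG in set 076, and to 2611 and 407 with Dll1Ab and 383 and 2253 with IgG in set 045. Ucp1, the uncoupling protein that defines brown fat, lay at 5106 and 2859 with Dll1Ab and 942 and 4075 with IgG in set 076, and at 1147 and 172 with Dll1Ab and 100.1 and 695 with IgG in set 045. The 8 white fat markers followed at 26438 and 18436 with Dll1Ab and 12620 and 26774 with IgG in set 076, and at 12708 and 2941 with Dll1Ab and 3438 and 13380 with IgG in set 045. So the libraries high in subunit transcripts were those high in fat markers in both sets and both groups. The 8 macrophage markers ran the other way, at 6577 and 8781 with Dll1Ab and 13084 and 6039 with IgG in set 076, and at 9108 and 12923 with Dll1Ab and 9400 and 5301 with IgG in set 045. The nerve markers, whose sums are given with the comparison of the sets, also ran the other way in both sets and both groups. The part of fat, muscle, macrophage or nerve content in the subunit levels was not tested.

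**Figure D5:**
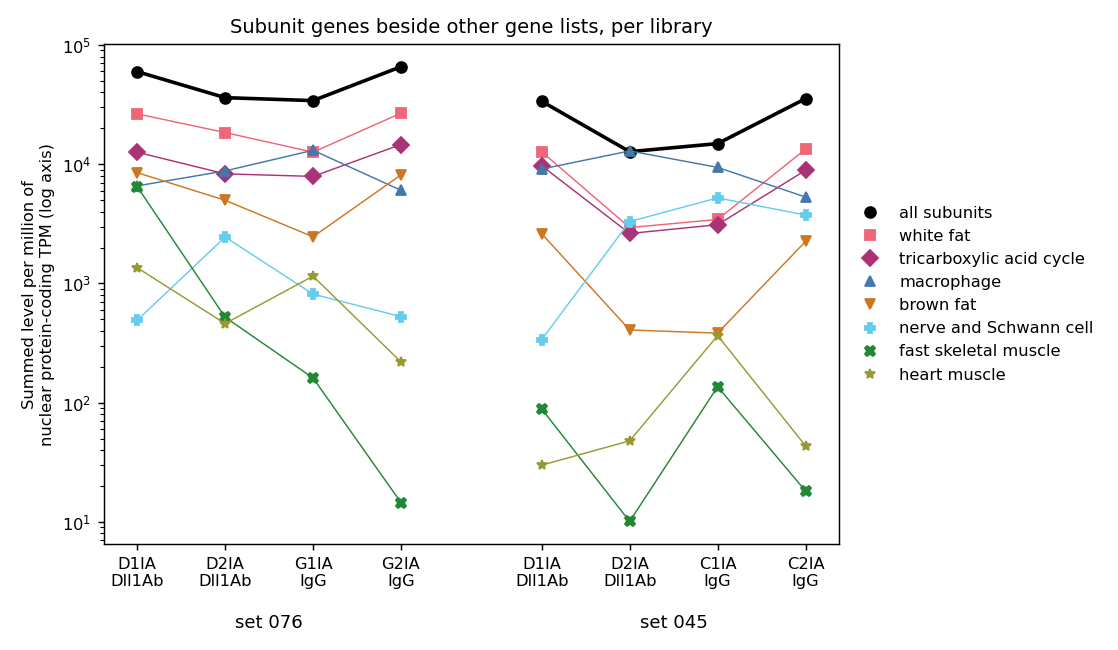
Summed level of the subunit genes and of 7 other gene lists in each library, on a log axis and a scale where nuclear protein-coding genes total 1000000 (1 symbol per list and library, Dll1Ab left of IgG in each set; lines join the libraries of a set). White fat, brown fat and tricarboxylic acid cycle genes follow the subunit sums within each group of a set. Macrophage and nerve genes run opposite to them there, and fast skeletal muscle genes peak at 6491 in D1IA of set 076.

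Between the sets, smooth muscle markers of the artery wall differed as well, and those of endothelium mostly did not pass the test. Of the 10 smooth muscle markers, 8 were called higher in set 076, with a median log2 difference of 1.62, and they summed to 4305 and 3778 with Dll1Ab and 4854 and 4159 with IgG in set 076, and to 1032 and 1024 with Dll1Ab and 740 and 621 with IgG in set 045. In set 045 both Dll1Ab sums were above both IgG sums, and in set 076 the groups overlapped. The 7 endothelium markers had a median log2 difference of 0.06 between the sets, with 0 called higher and 1, Tie1, called lower. Of the 9 brown fat markers 3 were called higher in set 076, and of the 10 tested heart muscle markers 4 were. The heart list summed to 1355 and 460 with Dll1Ab and 1151 and 219 with IgG in set 076, and to 29.9 and 47.8 with Dll1Ab and 365 and 43.4 with IgG in set 045, where Myl7, Nppa and Sln were at 0 in both Dll1Ab libraries and Myl3 in all 4 libraries. The 8 nerve markers summed to 490 and 2448 with Dll1Ab and 813 and 527 with IgG in set 076, and to 338 and 3302 with Dll1Ab and 5218 and 3745 with IgG in set 045, with 0 called. The part of these markers in the difference of the subunit genes between the sets was not tested.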

How the data were processed

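The authors deposited 1 table of TPM for 49585 mouse genes in 8 libraries, unpooled, per the file headers. No aligner, counter or annotation is named in the labels. The submitters' processing notes name hg19 although the identifiers are mouse, so coordinates come from RefSeq alone. Per the labels' protocols, 100 ng of TRIZOL-extracted RNA went through ribosomal RNA depletion into a strand-keeping library kit. No column of values was left unused, and columns were assigned to groups by name, since they do not carry the labels' replicate numbers. TPM was rescaled so that nuclear protein-coding genes, by GENCODE M21, sum to 1000000. limma 3.58.1 in R 4.3.3 (trend, robust; residual df 5 with set and treatment, 4 with group by set means; two-sided) was run on log2(level + 1) over the 18170 genes whose mean level reached 1, with Benjamini-Hochberg adjustment and a threshold of 0.05; fold changes of low genes are understated. TPM times exon length gave whole reads within 0.001 reads for 100% of 25386 genes above 0 (5669 with a length derived from the values themselves). These reads were used for depth and 1 alternative. Limits from 0 reads cover counting error only. Intervals of log2 fold changes rest on limma's standard errors, and so on the spread among libraries. The test was checked on simulated data in which genes varied independently, unlike the subunit genes here. That check does not give the power of the test for these genes. Tables were handled with Python 3.11.15. The named genes were the isoform groups, the highest, lowest and smallest-p members of each complex, the smallest p within sets, catalytic subunits and up to 3 genes of other lists; Ndufs6, Ndufa11, Atp5l, Atp5sl, Ppargc1a, Ucp1, Xist and the heart genes at 0 were named after their values were seen. Members and gene lists were chosen with earlier results of these data known.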

Additional observations from a re-analysis of the deposited data

Results flagged for a closer look

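Among 118 sets of 4 values (levels, sums and ratios of the named members, within Dll1Ab or IgG samples), 5 had a library far from the other 3, by a gap over Dixon's 95% critical value. Chance alone gives about 1 in 20, and 5 of 118 does not exceed that. Each set of 4 values mixes libraries of sets 076 and 045, which the critical value does not allow for. All 5 concern restricted forms of complex IV subunits. In Dll1Ab samples Cox6a2 was high in D1IA of set 076, at 102. In Dll1Ab library D2IA of set 045 the ratio of Cox8b to Cox8a was low, at 0.321, that of Cox6b2 to Cox6b1 was high, at 0.0562, and that of Cox4i2 to Cox4i1 was 0, on 0 Cox4i2 reads. Since 0 reads allow a ratio of up to 0.0183 there, above the other Dll1Ab ratios of 0.00530 to 0.00593, this last library is not shown to be apart. In IgG samples the ratio of Ndufa4l2 to Ndufa4 was high in C1IA of set 045, at 0.194.

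Atp5g3 was higher in both Dll1Ab libraries of set 076 and lower in both of set 045 than in the IgG libraries of the same set, so every Dll1Ab library of a set moved the same way and the sets went opposite ways. Of all genes tested, 7.99% had both Dll1Ab libraries above both IgG libraries in set 076, and 20.8% had both below in set 045. The share of genes that did both was not counted. The difference of the treatment effect on Atp5g3 between the sets was 0.59 on the log2 scale (SE 0.40, limma adjusted p = 0.812), which did not pass the threshold.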

How the results depend on the processing

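The count of members called for the antibody was 0 over both sets, in each set and for the difference between sets under every alternative run. These were TPM as deposited, TMM factors, pseudocounts of 0.1 and 5, no filter on low values, limma-voom on recovered reads, array weights (in the fit with a set term), no set term (over both sets), leaving out each library, and leaving out C1IA and D2IA of set 045. Between the sets, 10 members were called; the count was 82 with TPM as deposited, 52 with array weights, 2 with no filter and 1 without C1IA and D2IA of set 045, and 0 to 33 when 1 library was left out (9 to 13 under the others). It was 0 without D1IA or G2IA of set 076 or without D2IA or C1IA of set 045, 5 without C2IA and 33 without D1IA of set 045. TPM as deposited moves the median of all genes to 2.17 for that comparison. The log2 difference of the subunit sums, Dll1Ab minus IgG, was -0.09 and ranged from -0.44 to 0.26 when 1 library was left out.

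Treatment effects near 0 changed sign. With TPM as deposited Ndufa12 was -0.043 and Atp5k -0.13, with or without the set term, and Atp5k was -0.0087 with array weights. With TMM factors Cox8b was 0.055, Cox7a1 0.035 and Sdhb 0.012; without C1IA and D2IA of set 045 Cox8b was 0.10 and Sdhb 0.11. Leaving out 1 library gave -0.59 to 0.61 for Cox8b, -0.74 to 0.73 for Cox7a1, -0.036 to 1.54 for Cox6a2, -0.40 to 0.31 for Sdhb, -0.53 to 0.15 for Sdhd, -0.43 to 0.074 for Uqcrh and -0.088 to 0.50 for Atp5k. Between the sets, Ndufa4l2 was 1.57 and Atp5g3 3.03 with TPM as deposited, and Atp5g3 was 0.023 with TMM factors. The causes were not tested. Count-model tests on recovered reads were listed but not run, since the deposited unit is TPM. No paired analysis was possible because the columns do not carry the replicate numbers of the labels. The shallow libraries of set 045 limit low genes most: 1 read of a gene with 1 kb of exons was worth a level of 5.21 in D1IA of set 045, against 0.407 in D1IA of set 076.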
